A study of Mus musculus with 8 samples.

Results

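The response of the mouse kidney to ischemia-reperfusion injury (IRI) was measured as the difference between all 4 injured and all 4 normal arrays, averaged over 2 genotypes. The members were chosen by the sample titles and comprised all 8 arrays of the series, 2 each of wild-type (WT) normal, Keap1 knockdown (KD) normal, WT IRI and KD IRI kidneys. Every array held RNA of the whole left kidney of male mice aged 16 weeks. The IRI kidneys had their renal vein and artery clamped for 45 min, then released, and were taken at day 1, while the right kidney was never clamped. The normal left kidneys were taken without IRI, and no sham operation is described, so the effects of surgery and of ischemia cannot be told apart. The labels name neither the mouse strain nor how Keap1 was knocked down. Whether every array came from its own animal is not stated, so p-values reflect only the spread between these samples, which may be technical.

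Clamping the renal vessels deprives the tubules of oxygen, and the return of blood adds oxidative stress and draws in white blood cells. The proximal tubule, which does most reabsorption and runs on fatty acid oxidation, is the part of the nephron most exposed. Surviving tubule cells lose their transporters, switch on injury and embryonic genes and re-enter the cell cycle to replace lost neighbours. KEAP1 marks the transcription factor NRF2, encoded by Nfe2l2, for degradation, so its knockdown raises the genes of the antioxidant response.

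Levels are given as log2 of the processed signal over the 75th percentile of the array, so a step of 1 is a doubling, and levels of different genes are not comparable. A change is the IRI minus the normal level with genotype as a covariate, with the standard error (SE) of limma and a p-value adjusted by the Benjamini-Hochberg method over all genes, called below 0.05. Between 62.1% and 67.8% of spots per array were well above background, more on each IRI array than on each normal array, and none was saturated. Keap1 stood at 2.75 and 2.66 on the WT and 1.50 and 1.40 on the KD arrays of normal kidneys, and at 2.66 and 2.50 on the WT and 1.33 and 1.04 on the KD arrays after IRI. It was lower on all 4 knockdown arrays, in accordance with their labels. Its own change with injury was -0.19 ± 0.09 (SE, n = 4 arrays each; adjusted p = 0.0854, limma), or -0.195 with the slide as a replicate block (adjusted p = 0.0418). Nfe2l2, at 0.23 ± 0.08 (adjusted p = 0.0389), lost its call without any of 7 of the 8 arrays in turn.

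In the main fit more genes were called than not. Of 20580 genes tested, 12397 were called, or 60.2%. The 5500 called higher made up 26.7% and the 6897 called lower 33.5%. The number depended on the processing and the threshold. With normexp background correction 6746 genes were called, and against a minimum change of 2-fold 1697 were. The median change over all genes was -0.07. Changes of at least 2-fold were called higher for 2057 genes and lower for 2235, at least 8-fold for 308 and 165, and at least 32-fold for 43 and 30. The share of variance along the first principal component was 74.9%. It placed the normal arrays between -80.7 and -73.4 and the IRI arrays between 50.8 and 101.7, with no overlap.

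The changes of WT and KD, taken from separate arrays, correlated across genes with r = 0.820 (Spearman's rho 0.793), though genes are no independent replicates. Changes on the slide that held replicate 1 of each group and on that of replicate 2 correlated with r = 0.951. On its own arrays, injury was called for 9432 genes in WT (45.8%) and 12202 in KD (59.3%). These shares are not a test of a difference between genotypes, which the interaction gave directly. It was called for 1359 genes (6.60%), higher in KD for 780 (3.79%) and lower in KD for 579 (2.81%).

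A gene was taken as shared when it was called in the average, changed at least 2-fold the same way in WT and in KD, and had all 4 IRI arrays beyond all 4 normal arrays. By this rule 1465 genes rose together (7.12% of those tested) and 1411 fell together (6.86%). The lack of overlap alone, in either direction, held for 50.6% of the genes tested. Both genotypes passed 8-fold for 169 of the rises and 88 of the falls, and 32-fold for 24 and 24. Of the shared rises, 360 were not above background on any normal array. Of the shared falls, 106 were not above background on any IRI array. The interaction was called for 216 of the shared rises and 113 of the shared falls, so a shared direction does not mean an equal size.

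**Figure D1:**
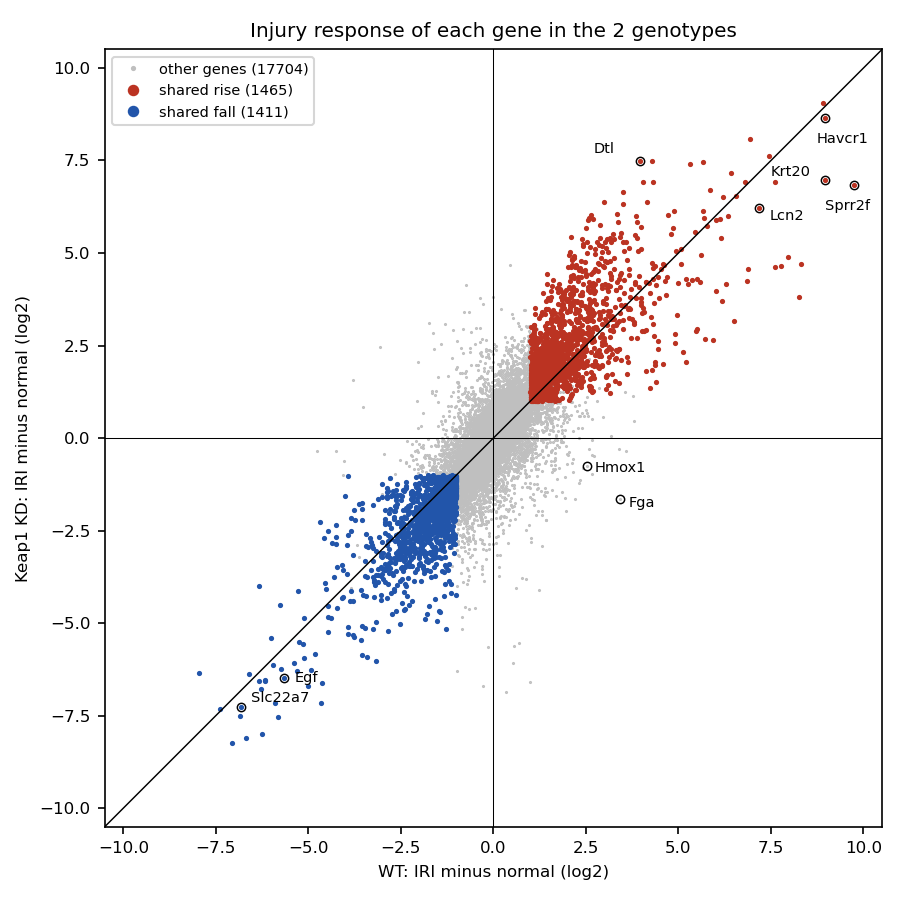
Each point is 1 of 20580 genes, with its IRI minus normal change in WT on the horizontal axis and in Keap1 KD on the vertical axis, both in log2. By their definition, the 1465 shared rises and 1411 shared falls lie in the quadrants of equal sign. They lie on both sides of the line of equal change, while Hmox1 and Fga lie in the quadrant of opposite signs.

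The 15 largest shared rises were ranked by the smaller of the WT and KD changes, among genes with a symbol, and are described by kind rather than in that order. Havcr1, the gene of the proximal tubule injury marker KIM-1, stood at -3.71 and -4.73 on the WT and -2.94 and -3.50 on the KD arrays of normal kidneys, and at 4.41 and 5.07 on the WT and 5.52 and 5.35 on the KD arrays after IRI. Its lowest injured array lay far above its highest normal array, and it was 448-fold higher (8.81 ± 0.26, adjusted p = 1.56e-06), by 8.96 in WT and 8.66 in KD. Krt20, a keratin better known from gut and bladder lining, stood at -3.62, -4.19, -2.02 and -1.10 on the normal arrays (WT then KD) and at 4.41, 5.70, 5.48 and 5.35 on the IRI arrays. As the rule for shared genes requires, the groups did not overlap. Krt20 was 250-fold higher (7.97 ± 0.48, adjusted p = 1.82e-05). Lcn2, the gene of NGAL, a protein that withholds iron from bacteria and serves as a marker of acute kidney injury, stood at -4.27, -3.99, -4.22 and -2.88 on the normal and at 2.39, 3.71, 2.61 and 2.76 on the IRI arrays. It was 104-fold higher (6.70 ± 0.39, adjusted p = 1.66e-05).

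Sprr2f, a cornified envelope gene, stood at -7.22 and -7.17 in WT normal, not above background, at -3.96 and -2.64 in KD normal, and between 1.84 and 3.58 after injury. Its change was 8.29 ± 0.64 (adjusted p = 4.34e-05). Crct1, another gene of cornified epithelia, lay between -7.65 and -6.33 on the normal arrays, all at background, and between 0.16 and 0.74 on the IRI arrays, at least 50.2-fold higher. A lower bound of this kind compares the mean after injury with the lowest signal that counted as well above background on each normal array. Grp, which encodes gastrin-releasing peptide, went from between -7.35 and -7.15 to between -0.50 and 0.90, at least 40.6-fold higher. It too was at background on all 4 normal arrays.

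Fosl1, which encodes an AP-1 transcription factor, rose by 6.54 in WT and 6.53 in KD, with only 1 normal array above background. Timp1, an inhibitor of matrix metalloproteinases, was 72.0-fold higher (6.17 ± 0.25) and rose from between -2.64 and -1.25 to between 3.32 and 4.50. Adam8, a membrane protease of white blood cells, had the smallest SE of the leading rises: it stood between -1.64 and -1.02 on the normal arrays and between 4.07 and 4.82 on the IRI arrays (5.81 ± 0.09, adjusted p = 2.52e-07). Flnc, an actin crosslinker best known from muscle, was 59.6-fold higher, with 3 normal arrays above background. With probes required to be well above background on all 8 arrays, another of its probes was used and the change was 1.02 (adjusted p = 0.0125). Arg1, an arginase of macrophages, was at least 20.9-fold higher, the chemokine gene Ccl7 at least 19.5-fold, Csf3r, the receptor for the neutrophil growth factor G-CSF, at least 20.4-fold, and Il1rn, the interleukin 1 receptor antagonist, at least 30.3-fold. All of these had been at background on the 4 normal arrays. Pbp2, of the phosphatidylethanolamine-binding protein family, was the last of the 15, with 5.51 ± 0.51 and only 1 normal array, KD normal 2, above background.

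**Figure D2:**
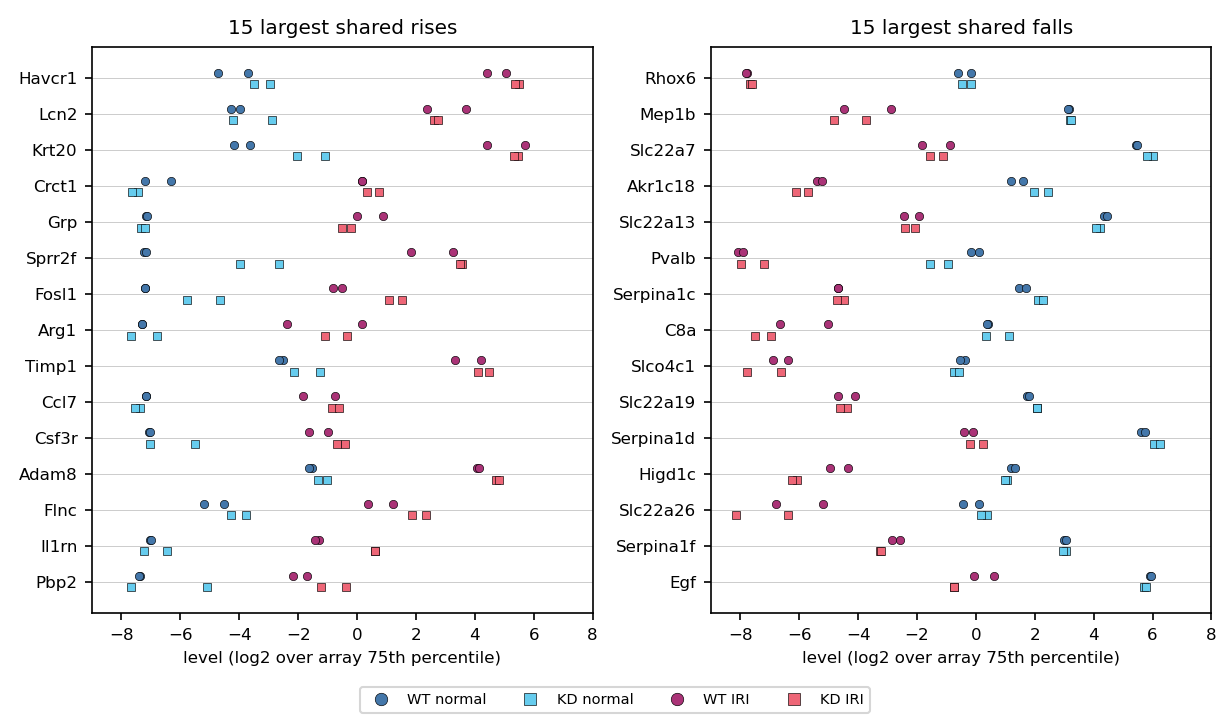
Levels of the 15 largest shared rises (left) and falls (right) on each of the 8 arrays, in log2 over the 75th percentile of the array, with WT as circles and KD as squares. For each of the 30 genes every IRI point lies on the same side of every normal point, as the rule for shared genes requires.

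The 15 largest shared falls, ranked the same way, began with Rhox6, a homeobox gene known from the reproductive tract and placenta. It was well measured on every normal array, between -0.62 and -0.15, and below background on every IRI array, at least 47.0-fold lower. Slc22a7, an organic anion transporter, stood at 5.45 and 5.47 on the WT and 6.02 and 5.83 on the KD arrays of normal kidneys, and at -0.89 and -1.84 on the WT and -1.12 and -1.55 on the KD arrays after IRI. The normal arrays lay within 1 unit of each other and far above all injured ones, and it was 131-fold lower (-7.04 ± 0.21, adjusted p = 1.93e-06). Slc22a13, a urate and nicotinate transporter, was 89.9-fold lower and stood between 4.08 and 4.47 before and between -2.43 and -1.93 after injury. Mep1b, a brush-border metalloprotease, was 145-fold lower (-7.18 ± 0.38), from between 3.14 and 3.24 to between -4.83 and -2.88.

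Egf, the growth factor made by the thick ascending limb and distal convoluted tubule, stood at 5.92, 5.95, 5.70 and 5.79 on the normal arrays (WT then KD) and at 0.61, -0.05, -0.74 and -0.75 on the IRI arrays. It was 67.4-fold lower (-6.08 ± 0.20, adjusted p = 2.49e-06). Pvalb (parvalbumin), which buffers calcium in the distal convoluted tubule, stood at -0.16, 0.09, -0.95 and -1.56 on the normal arrays and was not above background on any IRI array, at least 38.2-fold lower. In bulk tissue, fewer cells of a type and less RNA per cell cannot be told apart.

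The other leading falls were of mixed kinds. Slco4c1, an organic anion transporter of the proximal tubule, was at least 40.7-fold lower. Akr1c18, a steroid-reducing enzyme, fell by 7.40 on the log2 scale, C8a, a complement component, by 7.12 and Higd1c, of the hypoxia-induced domain family, by 6.53. The remainder were paralogs whose probes could share signal, namely Serpina1c, Serpina1d and Serpina1f of the alpha-1-antitrypsin family and Slc22a19 and Slc22a26 of the organic anion transporters. Their changes lay between -6.67 and -5.99.

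Promoter sequences were compared as a description of the genes that moved together. RefSeq promoters (mouse build GRCm38.p6) were found for 943 of the 1206 shared rises with a symbol and 802 of the 1002 shared falls, and for 11252 of 14104 tested genes. The 250 bases before and the 50 bases after each start were searched on both strands. The AP-1 motif TGANTCA stood in 8.55% of the promoters of shared rises, 6.72% of those of shared falls, 5.62% of those of all tested genes and 7.81% of all in the table. The E2F motif, TTTCCCGC or TTTGGCGC, stood in 4.19%, 1.20%, 2.57% and 1.56% of them. The hepatocyte nuclear factor motifs had the opposite order. The HNF4 motif, CAAAGTCCA or AGGTCAAAG, stood in 1.37% of rises, 2.91% of falls and 0.908% of tested genes (0.895% of all in the table), and the HNF1 motif, GTTAATNAT, in 0.256%, 1.81% and 0.559% (0.801% of all). The STAT motif TTCNNNGAA stood in 8.38% of rises, 5.42% of falls, 7.04% of tested genes and 8.30% of all in the table. The antioxidant response element, TGACNNNGC, with 14.0%, 13.5% and 13.9%, and the CCAAT box, with 37.4%, 39.0% and 37.1%, hardly varied. The element can overlap the AP-1 motif. These are shares of letters in a window and were not tested.

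The stretches that follow show AP-1 and E2F matches in shared rises and HNF4 and HNF1 matches in shared falls, from genes with a large shared change. The motifs and genes were picked after the changes were known, and only matches in the 250 bases before a start are shown. Other leading genes did not follow this division. The falls Serpina1c and Serpina1d held the AP-1 match TGACTCA, and the rises Havcr1, Lcn2 and Timp1 held none of these motifs there. Each runs 5′ to 3′ on the strand of the gene, with up to 50 bases on each side of the match in capitals.
Sprr2f, AP-1, chr3:92364940-92365046: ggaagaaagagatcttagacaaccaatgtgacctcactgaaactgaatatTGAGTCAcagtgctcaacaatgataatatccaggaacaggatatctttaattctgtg
Il1rn, AP-1, chr2:24336669-24336775: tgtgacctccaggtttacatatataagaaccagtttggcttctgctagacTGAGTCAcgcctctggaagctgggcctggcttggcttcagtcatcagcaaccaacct
Trem2, E2F, chr17:48346270-48346377: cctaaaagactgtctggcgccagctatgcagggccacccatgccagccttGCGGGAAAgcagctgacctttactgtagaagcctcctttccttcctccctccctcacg
Dtl, E2F, chr1:191575545-191575602: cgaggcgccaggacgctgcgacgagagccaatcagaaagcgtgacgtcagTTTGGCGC
Smcp, HNF4, chr3:92589098-92589206: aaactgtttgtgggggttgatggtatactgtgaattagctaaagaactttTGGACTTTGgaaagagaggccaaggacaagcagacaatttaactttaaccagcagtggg
Aadat, HNF4, chr8:60506002-60506110: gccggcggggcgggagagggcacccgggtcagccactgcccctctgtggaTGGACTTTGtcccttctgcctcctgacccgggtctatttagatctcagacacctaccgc
Pzp, HNF1, chr6:128526864-128526970: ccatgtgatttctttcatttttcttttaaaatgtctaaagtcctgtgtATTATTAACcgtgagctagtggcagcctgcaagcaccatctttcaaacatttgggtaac
Perm1, HNF1, chr4:156215677-156215744: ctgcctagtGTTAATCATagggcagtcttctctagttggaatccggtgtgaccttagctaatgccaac

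In Sprr2f and Il1rn the same 7 letters, TGAGTCA, begin 197 and 141 bases before a start. For Il1rn this is 1 of 3 promoters in the table, and the others hold no match in the 250 bases before the start. Dtl, which encodes a ubiquitin ligase adaptor of S phase, carries its E2F match directly at the start and was at least 32.0-fold higher, whereas Trem2, a receptor of macrophages, rose by 4.30 ± 0.18. Smcp, a mitochondria-associated gene best known from sperm, fell by 4.63 ± 0.54, Aadat, an enzyme of tryptophan and lysine breakdown, by 3.86 ± 0.27, Pzp, a protease inhibitor of plasma, by 3.64 ± 0.30, and Perm1, a regulator of mitochondrial genes in muscle, by 3.49 ± 0.40. A match does not show that a factor binds there.

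The gene lists that follow count members kept by the filter on dim probes. Some were not above background on any array of the other condition. They were kept only through the condition in which they were high, and so had to differ. They comprised 8 chemokines and cytokines, 5 neutrophil genes and 2 each of the repair factors, the EGF, monocyte, lymphocyte, interleukin 6 and replication lists. The proximal tubule factors, the thick ascending limb, red blood cell and clock lists held 1 each. Members above background on only 1 array of the other condition, such as Slc7a11 of the NRF2 list, also passed in this way. They are not in these counts, which are therefore minimum counts. The tubule injury list moved almost as a whole. Of its 22 members, all measured, 19 rose, none fell and 3 were not called, with a median of 2.61 against -0.07 over all genes. Cd44, a hyaluronan receptor, stood between -2.40 and -1.98 on the normal and between 1.78 and 2.69 on the IRI arrays (4.51 ± 0.12, adjusted p = 1.06e-06). Vim, an intermediate filament of mesenchymal cells, rose by 3.28. The 3 that were not called were Fga (0.89), Il18 (-0.11) and Ccn2 (-0.36). Of the 23 measured of 24 keratin and cytoskeleton genes, 17 rose, 1 fell and 5 were not called, with a median of 1.59. The calcium-binding protein gene S100a6 was 10.1-fold higher and the tubulin gene Tubb6 9.32-fold, whereas the motor protein gene Myo5a fell by 2.07. The simple epithelial keratins Krt8, Krt18 and Krt19 rose by 1.90, 1.57 and 1.59, and Krt7 was at -0.15, not called.

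Genes of every tubule segment fell, and the late proximal segment fell furthest. Of 20 markers of the early proximal segments 18 fell and none rose, with a median of -1.60. Of 19 measured markers of the late segment 18 fell and 1 rose, with a median of -3.42. Of 18 markers of the thick ascending limb and distal convoluted tubule all 18 fell, with a median of -1.31, and of 16 of the collecting duct 15 fell and none rose, with a median of -0.96. The median of the late segment was -3.13 in WT and -3.69 in KD, and that of the early segments -1.27 and -2.02. The difference between the segment medians was not tested.

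In the early segments, the phosphate transporter Slc34a1 stood at 6.98, 6.99, 7.14 and 7.02 on the normal arrays and at 5.46, 4.55, 4.72 and 4.50 on the IRI arrays. It was 4.68-fold lower (-2.23 ± 0.20, adjusted p = 7.39e-05). The water channel Aqp1 fell by 2.44, and the endocytosis receptors Lrp2 (megalin) and Cubn (cubilin) by 2.19 and 1.93. The 2 that were not called were the amino acid transporter genes Slc36a2 (0.60 ± 0.58) and Slc3a2 (-0.19). In the late segment the amino acid transporter Slc7a13 was 48.5-fold lower and the oxysterol hydroxylase Cyp7b1 53.5-fold. The spread was wide: Kap, an androgen-dependent kidney protein, fell by 0.59, and Gsta2, a glutathione S-transferase, rose by 1.16 ± 0.12.

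Segments beyond the proximal tubule held both small and large falls. Umod, the uromodulin gene of the thick ascending limb, fell by only 0.33, from between 7.78 and 8.07 to between 7.54 and 7.77. The salt transporter Slc12a1 of the same segment fell by 2.54, Calb1, a calcium-binding protein of the distal convoluted tubule, by 3.82, and Tmem207 by 4.10. In the collecting duct the vasopressin receptor Avpr2 fell by 1.68, the water channel Aqp2 by 1.38 and the sodium channel subunit Scnn1a by 1.37. Hsd11b2, which shields the mineralocorticoid receptor from glucocorticoids, was at -0.39 (adjusted p = 0.0999).

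**Figure D3:**
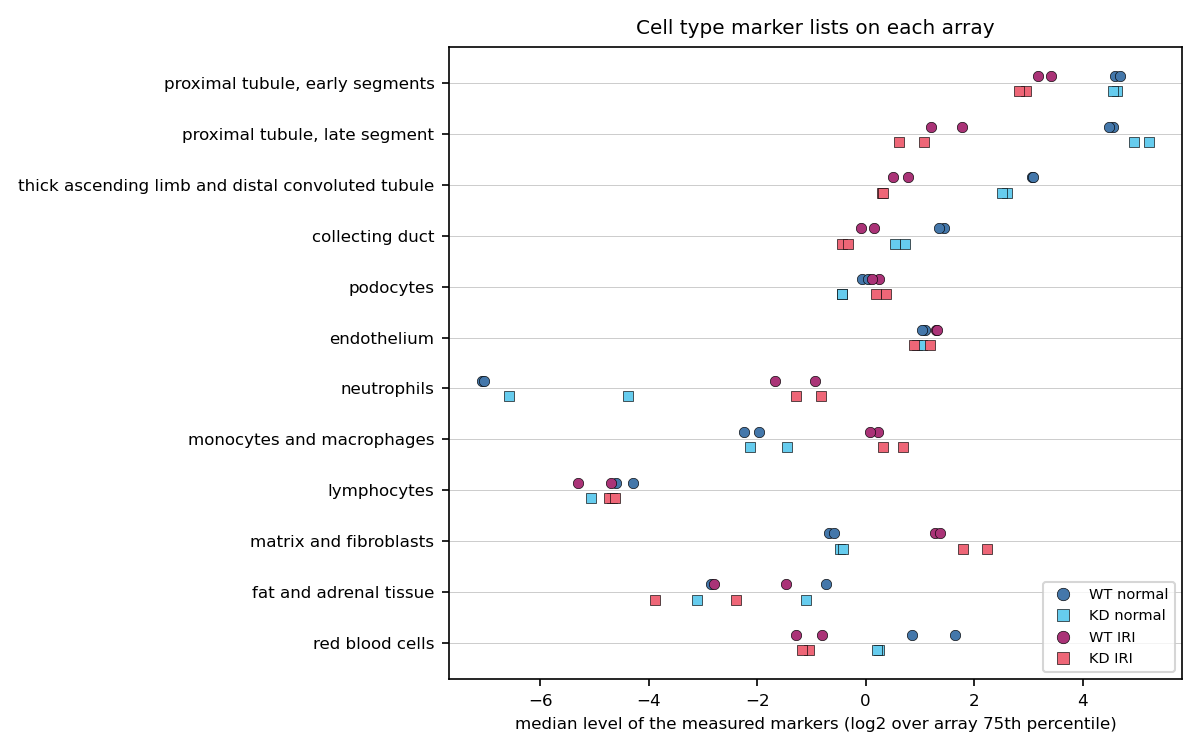
Median level of the measured markers of 12 cell types on each array, in log2 over the 75th percentile of the array. The medians of IRI and normal arrays overlap for lymphocytes, endothelium and fat and adrenal tissue, and for podocytes they lie close, at most 0.0497 before and at least 0.114 after injury. For the other 8 lists they stand apart.

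Transcription factors of the mature proximal tubule fell as well. Of 16 measured factors and nuclear receptors 13 fell, 2 rose and 1 was not called, with a median of -1.10. Hnf4a, a main regulator of proximal tubule identity, stood at 3.70, 3.50, 4.16 and 3.80 on the normal arrays and at 2.66, 2.61, 2.52 and 2.05 on the IRI arrays (-1.33 ± 0.18). Every injured array lay below every normal one, which held for 5819 of the 20580 genes tested. Ppara and Ppargc1a, which drive fatty acid oxidation and mitochondrial biogenesis, fell by 1.83 and 1.56, and Esrrb, an orphan receptor, by 2.34. Foxj1, a regulator of motile cilia, went the other way and was at least 3.20-fold higher, though it lost its call with normexp background correction.

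Factors of development and repair rose. Of 24 members 17 rose, 1 fell and 6 were not called, with a median of 1.49. Sox9, which marks repairing tubule cells, stood between -4.91 and -3.71 on the normal arrays and between -1.15 and 0.67 on the IRI arrays (4.17 ± 0.41, adjusted p = 0.000117). Runx1 was at least 5.67-fold higher, and Myc, a driver of growth, rose by 2.46. Pax2 (-0.34) and Pax8 (-0.11), factors of the embryonic nephron, were not called, and Lhx1 fell by 1.67 ± 0.15. Of 11 measured genes of epidermal growth factor signalling 2 rose and 5 fell, against 26.7% higher and 33.5% lower over all genes. Beside the loss of Egf, the ligand Areg was at least 3.38-fold higher and Hbegf rose by 0.53 ± 0.15, while the receptor Erbb3 fell by 1.22 and Egfr was at -0.21, not called. Areg lost its call with normexp, and Hbegf without any of 4 arrays in turn.

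Genes of fatty acid oxidation and of the TCA cycle and respiratory chain fell almost throughout. Of 27 genes of fatty acid oxidation 26 fell and none rose, with a median of -1.11. Acadm, the medium-chain dehydrogenase, stood at 7.10, 7.13, 7.37 and 7.22 on the normal arrays and at 5.11, 4.93, 4.71 and 4.38 on the IRI arrays, 5.35-fold lower. The peroxisomal enzymes Acox3 and Ehhadh fell by 2.34 and 2.40, more in KD than in WT (interaction adjusted p = 0.0170 and 0.0320), and Cpt1a, the entry step into mitochondria, by 0.81. Of 27 measured genes of the TCA cycle and respiratory chain all 27 fell, with a median of -1.01. Cox7a1, a subunit of cytochrome c oxidase, fell by 2.40, Idh2 by 1.76 and Ndufs1, a subunit of complex I, by 1.43. With quantile normalization the medians of these lists were -0.673 and -0.659, so the size of the fall depends on the scaling, but not its direction.

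Gluconeogenesis and fructose use fell in 9 of 10 measured genes. The exception was Ppp1r3c, which directs glycogen synthesis and rose by 1.29. G6pc, the last step of glucose release, fell by 3.38, with -1.86 in WT and -4.89 in KD (interaction adjusted p = 0.0283). The fructose transporter Slc2a5 and ketohexokinase, Khk, fell by 2.87 and 2.33. Of 25 measured genes of amino acid and NAD metabolism 21 fell and 2 rose, with a median of -1.62. The tyrosine-degrading enzyme Hpd fell by 5.91 and Ido2, of tryptophan breakdown, by 4.58. Nnmt, which consumes nicotinamide, rose by 1.54.

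Of 25 glycolysis and hypoxia genes 6 rose, 11 fell and 8 were not called, with a median of -0.12, which turned to 0.052 with quantile normalization. Over all genes 26.7% were higher and 33.5% lower. Hk2, an inducible hexokinase, stood at -3.34, -4.09, -2.27 and -1.57 on the normal arrays and at 0.36, 0.60, 2.16 and 2.39 on the IRI arrays, 18.3-fold higher. Slc16a3, the lactate exporter, was 6.33-fold higher. The 3 largest falls of the list were the hypoxia targets Car9, Vegfa and Bnip3, by 2.04, 1.22 and 1.19. Because the list mixes hypoxia targets with glycolysis genes, it gives no direction for hypoxia targets as a set. Adm, another hypoxia target, was called higher, and Egln3 was not called. The change of Adm lay between 0.905 and 1.112 over 20 alternatives, and its call was lost in 2. Of 21 genes of cholesterol synthesis and uptake 13 fell and 2 rose, and Cyp51 fell by 2.76.

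Neutrophil markers had the highest median of the cell type lists, on a background that differed between normal arrays. Of 13 measured of 16 markers 12 rose and none fell, with a median of 5.28. When probes had to be well above background on all 8 arrays, which few of these passed, 1 was called higher, and 7 were in a fit of the authors' deposited table. For 5 of the 13 no normal array was above background, and with those at their lower bound the median was 4.83. S100a9, a calcium-binding protein that neutrophils carry in bulk, stood at -2.42 and -2.31 on the WT and -0.67 and 2.42 on the KD arrays of normal kidneys, and at 5.43 and 6.46 on the WT and 5.52 and 5.66 on the KD arrays after IRI. Array KD normal 2 was high before injury, and the change was 6.51 ± 0.88 (adjusted p = 0.000513). Retnlg, another neutrophil gene, stood at -7.20, -7.21, -6.57 and -2.37 on the normal arrays and between -0.80 and 2.23 after injury. The median of the markers was -7.07, -7.04, -6.57 and -4.38 on the normal arrays and between -1.67 and -0.827 on the IRI arrays. Without KD normal 2 the median change was 5.82, and with normexp background correction it was 2.21. S100a8, S100a9 and Retnlg lost their calls in the fit of the authors' deposited table (adjusted p = 0.803, 0.982 and 0.923), with changes of 6.45, 6.53 and 6.06. That fit, which also gave the 7 calls above, kept the intensity trend. The deposited values are centred per probe, so their mean is not an intensity. These p-values therefore cannot decide whether the rises hold in that table.

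Of 21 measured monocyte and macrophage markers 18 rose, 1 fell and 2 were not called, with a median of 2.01. Msr1, a scavenger receptor, was at least 16.9-fold higher, and Chil3, a chitinase-like protein of activated macrophages, rose by 6.12 ± 0.66. Csf1r, the receptor that sustains resident macrophages, fell instead, from between 0.96 and 1.23 to between 0.07 and 0.68 (-0.77 ± 0.13, adjusted p = 0.00147). Of 11 measured of 18 lymphocyte markers 1 rose, 4 fell and 6 were not called, with a median of -0.16, against 26.7% higher and 33.5% lower over all genes. The one that rose, Ccr7, is also carried by dendritic cells and was at least 1.14-fold higher. The T cell genes Cd3d and Cd3g fell by 1.08 and 0.92, but the call of Cd3d was lost in 7 of 20 alternatives. With normexp no lymphocyte marker was called lower. By genotype, the median change of the list was -0.90 in WT and 0.145 in KD.

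Chemokines and cytokines rose in 21 of 22 measured genes of 25, with a median of 2.47. For 8 of the 22 no normal array was above background, and with those at their bound the median was 1.56. With probes well above background on all 8 arrays, 11 were called higher. Ccl2, which draws monocytes, stood at -3.35, -3.24, -2.66 and -2.23 on the normal arrays and at 1.63, 1.16, 1.79 and 2.02 on the IRI arrays, 22.9-fold higher. Tnf and Il6 were at least 2.27-fold and 1.84-fold higher, with Il6 above background on 3 of the 4 IRI arrays. The member that was not called was Ccl8 (-0.47). The part of incoming white blood cells in these rises was not tested.

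Of 18 measured genes of interleukin 6 family signalling 10 rose, 2 fell and 6 were not called. Socs3, the feedback inhibitor of STAT3, rose by 3.28, with Saa3 at least 5.42-fold and Saa2 at least 3.90-fold higher, whose probes could share signal with paralogs. The receptors Lifr and Il11ra1 fell by 1.32 and 0.76. Of 22 complement and coagulation genes 10 rose and 6 fell, against 26.7% higher and 33.5% lower over all genes. The fibrinogen chain Fgb stood at -1.99, -1.77, -1.55 and -1.39 on the normal arrays and at 2.19, 5.05, 1.36 and 1.59 on the IRI arrays, 18.7-fold higher, with WT IRI 2 the highest. C3, the central complement component, rose by 2.90. Complement factor B, Cfb, fell by 1.51 and the complement inhibitor Cd55 by 1.61. Fga was at 0.89 ± 1.05 (adjusted p = 0.488), with 3.42 in WT and -1.64 in KD.

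Matrix genes rose in 16 of 19 measured members, with a median of 2.19. Col1a1, the main fibrillar collagen, stood at 0.55, 0.47, -0.08 and -0.43 on the normal arrays and at 4.07, 4.13, 4.87 and 5.20 on the IRI arrays. It was 21.7-fold higher, by 3.59 in WT and 5.29 in KD (interaction adjusted p = 0.0170). Tnc, tenascin C of wound matrix, rose by 3.88, and Acta2, actin of smooth muscle and myofibroblasts, by 2.18. Dcn, a proteoglycan of resting fibroblasts, fell by 0.60, but its call was lost without any of 6 arrays in turn.

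Of 11 podocyte markers 2 rose, 1 fell and 8 were not called, with a median of 0.11. Over all genes 26.7% were higher and 33.5% lower. The slit diaphragm gene Nphs1 was at -0.28 and Wt1 at 0.07, neither of them called. The member that fell, Synpo, has 2 probes that disagreed in direction. Of 16 endothelial markers 10 rose, 1 fell and 5 were not called, with a median of 0.36. The junction protein gene Cldn5 rose by 0.81 and Pecam1 by 0.59, whereas Kdr, the receptor for VEGF, fell by 0.68. Red blood cell genes fell in 5 of 6 measured members, the globin genes Hba-a1 and Hbb-bt by 2.05 and 1.97. The fat and adrenal markers, which can show whether surrounding tissue was taken along, had a median of -0.04, 1 of 7 called higher and 1 lower. Their median level varied between arrays of the same group. It was -0.732, -2.85, -3.12 and -1.10 on the normal arrays (WT then KD) and -2.80, -1.47, -2.40 and -3.89 on the IRI arrays. The small median change therefore does not show that the arrays held equal amounts of such tissue. The largest uncalled change of these markers, that of Ucp1, came with levels between -5.25 and 1.02 that did not follow injury.

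Genes of DNA replication and mitosis rose in both genotypes and further in KD. Of 28 measured of 30 members 27 rose and none fell, with a median of 3.23. The median was 2.10 in WT and 4.17 in KD, and the interaction was called for 19 of the 28, all higher in KD, against 3.79% of all genes. Uhrf1, which copies DNA methylation at replication, stood at -3.19 and -3.13 on the WT and -4.17 and -4.68 on the KD arrays of normal kidneys, and at 1.35 and 0.43 on the WT and 2.46 and 2.54 on the KD arrays after IRI. The KD arrays were lower than WT before and higher after injury, and it rose by 4.05 in WT and 6.92 in KD (interaction adjusted p = 0.0213). Cdk1, the mitotic kinase, was 20.7-fold higher, and the helicase subunit Mcm5 21.2-fold. Mcm10 was at 0.37 (adjusted p = 0.285). Foxm1, a transcription factor of mitotic genes, rose by 3.29.

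**Figure D4:**
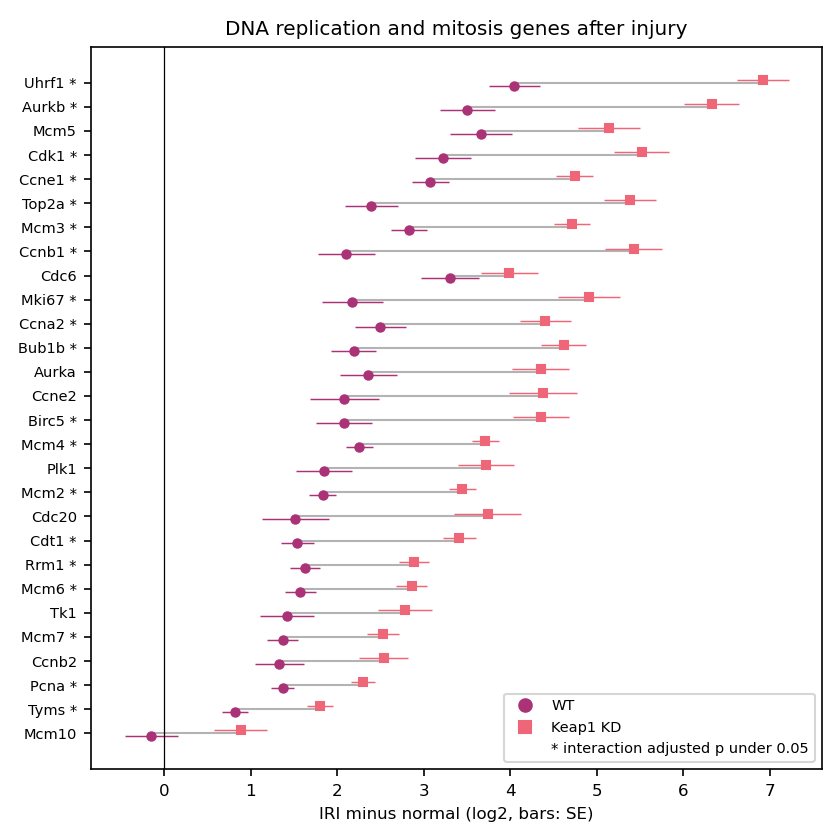
IRI minus normal change, in log2, of the 28 measured genes of DNA replication and mitosis in WT (circles) and Keap1 KD (squares), with bars for the SE and an asterisk where the interaction was called. The KD change is the larger one for each gene, and 27 of the 28 genes were called higher in the average.

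The interaction calls rest on few arrays. With all 8 arrays there were 1359 over all genes. Omitting WT normal 1 left 6, WT normal 2 left 10, KD IRI 2 left 16, KD IRI 1 left 170 and KD normal 2 left 436, counted anew in each fit. Among genes called both in the average and for the interaction, the change was larger in KD for 927 and smaller for 63. Among the genes with a symbol in this set, called in both tests, the interaction was highest for Dtl, Iqgap3, Rad54l, Ccnb1 and Fanci and lowest for Slc16a14, Sh2d1a, Polr3e, Gp1ba and Ctxn3. Genes not called in the average, such as Fga, had interactions of larger size.

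Of 27 measured genes of ribosome biogenesis 22 rose and 1 fell, with a median of 0.63; Rrp12 and Nop58 were 2.56-fold and 2.54-fold higher. In one-carbon and polyamine supply, 9 of 19 rose and 6 fell. Over all genes 26.7% were higher and 33.5% lower. The mitochondrial folate enzymes Mthfd1l and Mthfd2 rose by 2.83 and 2.73 and asparagine synthetase, Asns, by 2.69, while Shmt2, of the same folate pathway, fell by 1.29 and Odc1, the first enzyme of polyamine synthesis, by 0.73. Of 26 genes of the proteasome and protein folding 13 rose and 2 fell, with a median of 0.21. Trib3, a target of the stress factor ATF4, stood between -2.65 and -2.40 on the normal and between 0.59 and 0.89 on the IRI arrays, 9.43-fold higher. The chaperone Hspa5 of the endoplasmic reticulum was at -0.35, not called, and Herpud1, which serves degradation there, fell by 1.93.

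Of 24 cell death genes 14 rose, 1 fell and 9 were not called, with a median of 0.64. The shares over all genes were 26.7% higher and 33.5% lower. Ripk3, the kinase of necroptosis, stood at -2.92, -2.46, -2.77 and -2.76 on the normal arrays and at 0.08, 0.33, 0.28 and 0.68 on the IRI arrays, 8.40-fold higher. Mlkl, the pore former that it activates, was 8.30-fold higher, with -2.43, -2.53, -2.76 and -2.68 before and -0.04, 0.42, 0.64 and 0.79 after injury. Both rose in each genotype without overlap between the groups. All 4 IRI arrays lay above all 4 normal arrays for 4593 of the 20580 genes tested. Gsdmd, the pore former of pyroptosis, rose by 1.13 and Bax by 1.05. Gpx4, which guards against ferroptosis, fell by 0.75.

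Of 30 NRF2 targets 15 rose, 9 fell and 6 were not called, with a median of 0.48. The shares over all genes were 26.7% higher and 33.5% lower. Slc7a11, the cystine importer, was above background on only 1 normal array, at -5.15, and stood at -3.90, -3.20, -1.57 and -1.15 after injury (4.21 ± 0.46). Akr1b8, an aldo-keto reductase, averaged 1.87 ± 0.04 in normal WT and 4.30 ± 0.42 in normal KD kidneys, against 5.26 ± 0.41 in injured WT and 6.70 ± 0.02 in injured KD kidneys (SD, n = 2 each). Its level was higher both with knockdown and with injury, and the rise with injury was 2.89 ± 0.24. Txnrd1 rose by 0.61, Nqo1 was at 0.36 (adjusted p = 0.0712), and Gclm fell by 0.32. The NADPH-producing enzyme Me1 fell by 1.45 and the NRF2 target Osgin1 by 1.40.

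An average hides genes that respond in opposite ways. For 87 genes WT and KD were each called with opposite signs and the interaction was called, 39 of them higher in WT and lower in KD and 48 the reverse, and none of the 87 was called in the average. Hmox1, heme oxygenase 1, stood at 1.57 and 1.60 on the WT and 6.03 and 5.55 on the KD arrays of normal kidneys, and at 4.17 and 4.04 on the WT and 4.92 and 5.15 on the KD arrays after IRI. It rose by 2.52 ± 0.16 in WT and fell by 0.76 ± 0.16 in KD (interaction adjusted p = 0.00579), and the average of 0.88 ± 0.60 was not called (adjusted p = 0.239). Gclc, of glutathione synthesis, had the same pattern, with 0.49 in WT and -0.59 in KD. Picked after their values were seen, the renin genes Ren1 and Ren2, near-identical paralogs, stood at 0.73 and 0.49 in WT and at -0.96 and -1.09 in KD, and the clock gene Arntl at 1.14 in WT and -0.83 in KD.

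Clock and reference genes were also checked. Of 14 measured clock genes none rose and 9 fell, with a median of -1.01, Per3 by 1.75, Ciart by 1.77 and Hlf by 2.41. Dbp stood at 5.13, 4.86, 4.17 and 2.48 on the normal arrays and between 2.63 and 3.36 after injury, with KD normal 2 as low as the injured arrays, and was not called (adjusted p = 0.0720). The labels give no hour of collection, and its part in these changes was not tested. Of 12 measured reference genes 3 rose and 5 fell, against 26.7% higher and 33.5% lower over all genes. They spanned Rpl13a at 0.60, Ppia at 0.23, Actb at -0.38 and Sdha, a respiratory chain subunit, at -1.26.

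**Figure D5:**
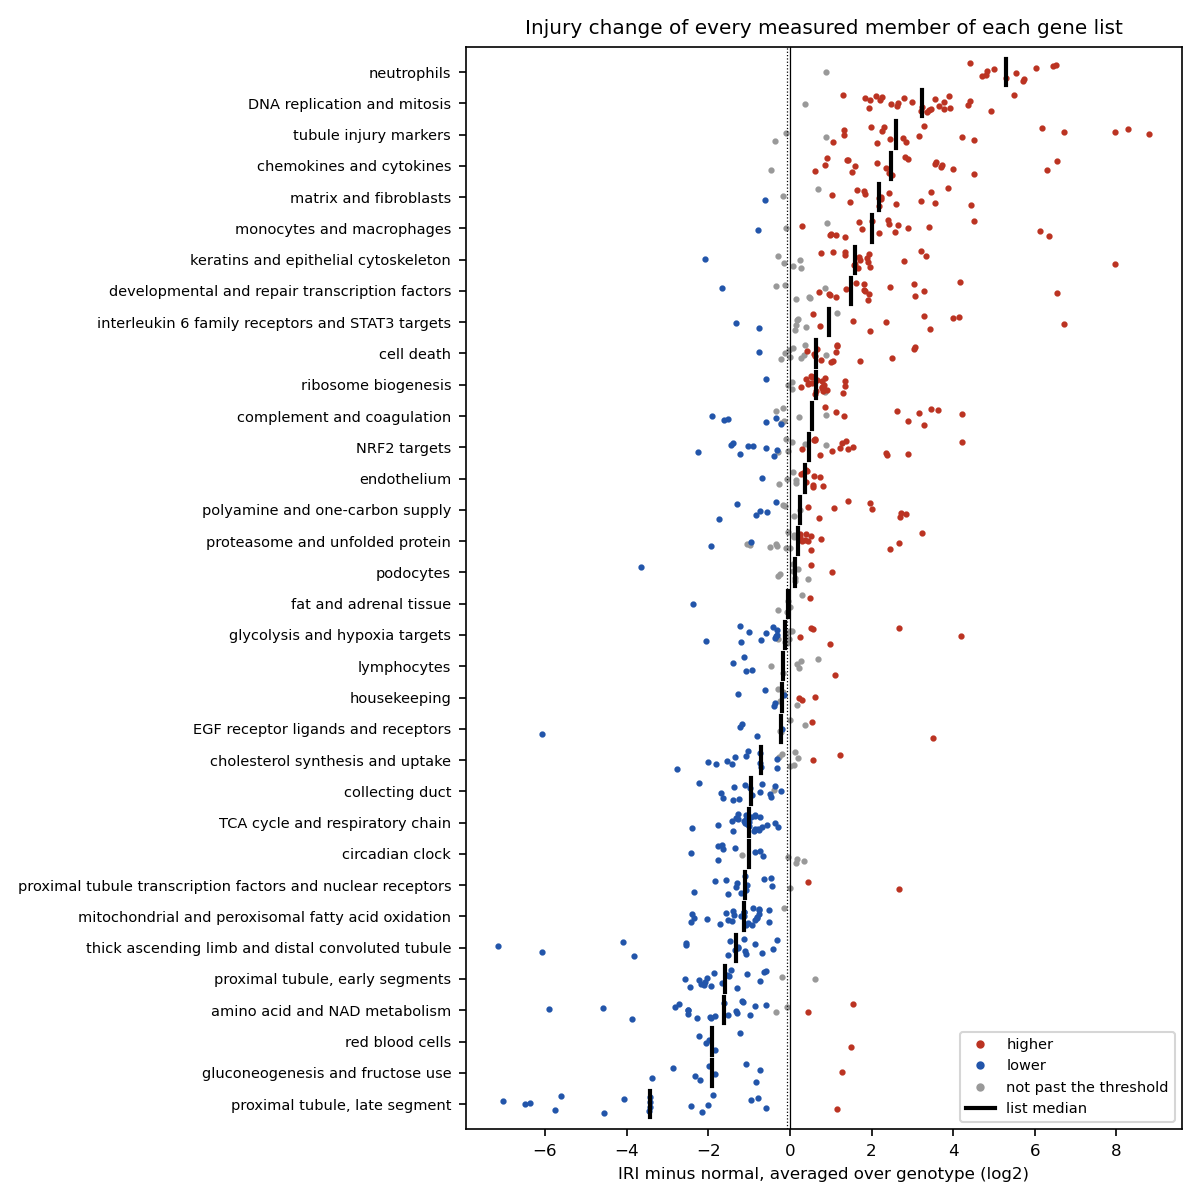
Injury change, in log2 and averaged over genotype, of every measured member of the 34 gene lists, coloured by call, with a bar at the median of each list and a dotted line at the median of all genes. The lists run from neutrophils, with a median of 5.28, down to the late proximal tubule, with -3.42.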

How the data were processed

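Each spot holds a linear fluorescence intensity from Agilent Feature Extraction 10.7.3.1, deposited by the authors as the processed signal, per the file headers. Per the labels' protocols, 300 ng of total RNA was labelled with Cy3. The authors' deposited log2 values followed the same signals, scaled to the 75th percentile and centred per probe. This was inferred from the values, as its scale is not stated in the sources used here. Its column medians were 0.160, 0.125, 0.0952 and 0.0564 for the normal arrays and -0.0746, -0.0822, -0.136 and -0.117 for the IRI arrays.

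Control and outlier spots were left out and spots of a probe averaged. A probe was kept when well above background on both arrays of a group, which kept 27408 of 41174. RefSeq accessions gave symbols for 26690 probes, and other probes kept the identifier of the file. The brightest kept probe per name gave 20580 genes, 14104 with a symbol. limma 3.58.1 in R 4.3.3, with the data.table package (version 1.17.8), fitted genotype plus injury with an intensity trend (5 residual degrees of freedom), and 4 group means for WT, KD and the interaction. Tests were two-sided. The code was tested on simulated data. Each replicate number marks 1 of 2 slides holding all 4 groups; deviations of same-numbered arrays correlated with r between 0.022 and 0.262.

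The comparison, the 34 gene lists and the named genes were chosen with earlier results of these data known. Always named were Keap1, Nfe2l2, Havcr1, Lcn2 and Slc34a1. Added were the 15 largest shared rises and falls with a symbol, by the smaller of the WT and KD changes, up to 3 rises, 3 falls and 1 uncalled gene per list, and the 5 largest interactions each way among genes with a symbol called both in the average and for the interaction; other list members illustrate a list. The alternatives were quantile normalization, normexp (offset 50), the deposited values, 2 filters, no trend, array weights, the slide block, no genotype term, group means, the mean of probes, omitting single arrays, and a minimum change of 2-fold. The median signal replaced the mean in normexp, as the mean was not used here. The number of arrays limits the precision. A few genes of the lists are counted but not reported by name here.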

Additional observations from a re-analysis of the deposited data

Results flagged for a closer look

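For the genes that follow, chosen by the rule for named genes, the response to injury differed between the genotypes by limma's interaction test (adjusted p between 0.00285 and 0.05). The values that follow are the change in KD minus the change in WT, on the log2 scale. The change was higher in KD for Uhrf1 2.87, Aurkb 2.83, Foxm1 2.25, Dtl 3.52, Iqgap3 3.39, Rad54l 3.36, Ccnb1 3.32 and Fanci 3.25. It was also higher for Il1rn 1.79, Foxj1 2.24, Tcf21 0.64, Marco 1.86, Col1a1 1.70 and Bcl2a1b 1.17. The change was lower in KD for Ehhadh -2.34, Acox3 -1.55, G6pc -3.03, Hpd -2.50, Glud1 -0.76, Ahcy -0.56, Akr1c18 -1.43, Higd1c -1.28 and Esrrb -1.42. It was also lower in KD for Fga -5.06, Cd55 -0.95, Hspb1 -1.88, Herpud1 -1.50, Hmox1 -3.28 and Casp4 -1.98. The lowest interactions among genes with a symbol that were also called in the average were Slc16a14 -4.07, Sh2d1a -3.99, Polr3e -3.79, Gp1ba -3.40 and Ctxn3 -3.36. As the report states, leaving out 1 of several single arrays removed most interaction calls. Groups of 2 arrays are too small to test for an outlying array.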

How the results depend on the processing

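With normexp background correction 6746 genes were called (3013 higher, 3733 lower), 692 rises and 892 falls were shared, 5272 genes were called in WT and 6976 in KD, and among interaction genes the change was larger in KD for 615 and smaller for 100. The deposited table gave 636 interaction calls (427 larger in KD, 22 smaller). Its fit kept the intensity trend, although its values are centred per probe and their mean is not an intensity. Without a filter on dim probes 12777 genes were lower, 15129 were called in WT, and 550 had an interaction (323 and 24). Probes well above background on all 8 arrays gave 922 shared rises. Without an intensity trend 739 interactions were called (481 and 33). Against a fold minimum of 2, 1697 genes were called, 925 higher and 772 lower. Quantile normalization gave 6146 higher and 6183 lower calls, a median change of -0.014 over all genes and a glycolysis and hypoxia median of 0.052. With the mean of all probes Tagln was 0.879 (adjusted p = 0.000264). The cause of these differences was not tested.

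Leaving out each array in turn gave 10667 to 12003 called genes (4774 to 5384 higher, 5893 to 6619 lower), 1420 to 1542 shared rises, 1289 to 1624 shared falls, 5898 to 9695 calls in WT, 9247 to 12557 in KD and 6 to 1694 interactions (3 to 921 larger in KD, 0 to 137 smaller). Omitting WT normal 1 left 5898 WT calls, and omitting WT normal 2 left 6111. With the slide as a replicate block 12350 genes were called, 10129 in WT, 12884 in KD and 1611 for the interaction, and of 193 named genes only the call of Keap1 differed. Of 164 named genes called, 126 kept the call under every alternative other than the fold minimum. Of 29 named genes not called, only 7 stayed uncalled under all of these alternatives.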
